A study of Mus musculus with 4 samples.

Results

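Cytosolic ribosomal protein genes encode the protein parts of the small and large subunits of the ribosomes that translate nuclear-encoded mRNAs. The genes were taken by symbol. A protein-coding gene was a member when its symbol was Rpl or Rps followed by a number and at most a short suffix, or was Rpsa, Rplp0, Rplp1 or Rplp2. Kinase genes of the Rps6k group were left out. The rule gave 84 of the 22911 genes named on the arrays, 32 of the small subunit and 52 of the large subunit, and used no measured value.

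The study asked which molecules are under the control of glucosylceramide synthase, which makes glucosylceramide from ceramide, in MC3T3-E1 cells, a clonal mouse osteoblastic line from calvaria. Cells received Miglustat at 50 µM, D-PDMP at 10 µM, D-PPMP at 1.0 µM or, as Control, none of the 3. The inhibitors were given for 4 days, and the cells were then plated again and kept for 24 h before RNA was taken. Each group had 1 Agilent one-colour array, so differences carry no replicate error and were not tested, and precision is limited by the small number of arrays. Miglustat is an iminosugar, whereas D-PDMP and D-PPMP are ceramide analogues with a shared phenyl and morpholino core and acyl chains of different length.

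Ribosomal protein genes are transcribed at high rates in growing cells, and their products are used in equal amounts. Most of their mRNAs begin with a run of pyrimidines, the 5′ terminal oligopyrimidine tract, through which the kinase mTOR and the RNA-binding protein Larp1 set how actively they are translated. That control acts on translation, which arrays of total RNA do not measure. Several members, such as Rplp0, Rpl13a and Rps18, serve as reference genes in quantitative PCR.

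The pyrimidine tract is shown here because the family is known for it and the choice by symbol did not use it. RefSeq promoters of build GRCm38.p6 were at hand for 64 members. Each line gives 30 bases, 5′ to 3′, from 5 before the annotated start to 25 after it. Capitals mark the run found by the motif search, a C followed by at least 4 letters that are each C or T, read on the gene's strand and beginning within 5 bases of the annotated start.
Rpl13a (chr7:45128721-45128750, minus strand): gacaagaCCTCCTCCTTTCCCaggcggctg
Rpl27a (chr7:109519190-109519219, plus strand): gctcCTCCCTTTTCCCTTTCTgccaccgcc
Rpl15 (chr14:18270962-18270991, minus strand): gccttCTTCCTTTCCTCTggcggcagccat
Rpl35 (chr2:39005107-39005136, minus strand): ctttcCTCTTTCTCTCgaaccaggctgctt
Rps10 (chr17:27635220-27635249, minus strand): cgcccCTTCCTTTCCagcctccgcctcgga
Rps18 (chr17:33955641-33955670, minus strand): ccgctCTCTCTTCCacaggaggcctacacg
Rps6 (chr4:86857343-86857372, minus strand): cgggcCTCTTTTTCgtgacgcctcccaggc
Rpl12 (chr2:32961707-32961736, plus strand): gatccgtCTTTTCggctttcggctcggagg
Rpl38 (chr11:114668575-114668604, plus strand): tcgttCTTTCCCCgttctcttcggttctca
Rps27l (chr9:66946081-66946110, plus strand): ccgccgCCTCTatcccggaagttgctgagg
Rpl22l1 (chr3:28805503-28805532, plus strand): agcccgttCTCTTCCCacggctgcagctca
Rpl5 (chr5:107900523-107900552, plus strand): cttgcgtgctggtggtgctacatactgcgc
Rplp0 (chr5:115559462-115559491, plus strand): ttcgaggaccgcctggttctcctataaaag
Rpl7l1 (chr17:46782632-46782661, minus strand): gcaagcgcagtagctgaagcaccggaaaga
Rpl10l (chr12:66284377-66284406, minus strand): attttgcggctggcggtgggcacgcacggc

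The motif stood at the annotated start of 30 of these 64 members, or 46.9%, against 21.5% of 17492 protein-coding genes with a promoter in the same table. Among 69 genes of mitochondrial ribosomal proteins, which are encoded in the nucleus but serve the mitochondrion's own ribosome, it was found in 17, or 24.6%. The last 4 sequences, those of the standard members Rpl5 and Rplp0 and of the paralogs Rpl7l1 and Rpl10l, had no match in this window. A gene counted as having the motif when any of its promoters in the table had it. The search read annotated starts only, and whether these are the starts used in these cells was not tested. A gene without a match is therefore not shown to lack the tract.

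Of the 84 members, 81 were well above background on all 4 arrays, and no spot of a member was saturated. The 3 others were paralogs. Rpl3l, a form of Rpl3 found mainly in muscle, and Rpl39l, a form of Rpl39 found mainly in testis, stayed near background on each of the 4 arrays, with signals of at most 1.41. Rpl10l, a testis form of Rpl10, had signals of 4.78 with Miglustat, 5.23 with D-PDMP, 3.36 with D-PPMP and 3.94 in Control, and was well above background with Miglustat and D-PDMP only. The probe of Rpl10 itself gave 89066, 86268 and 83604 with Miglustat, D-PDMP and D-PPMP, and 88842 in Control. Besides Rpl10, the brightest probes in Control were those of Rpl41, the smallest ribosomal protein, Rps18, Rps10 and Rpl37a, with Rpl41 at 103365, 100059 and 99609 in the 3 inhibitor groups and 102164 in Control. Signals of different probes are not set against each other as mRNA amounts, since each probe binds with its own strength.

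The members' signals were close to equal on the 4 arrays. Rplp0, the base of the ribosomal stalk that recruits translation factors, had processed signals of 56435 with Miglustat, 56825 with D-PDMP, 55698 with D-PPMP and 54493 in Control. Rplp1, one of the acidic stalk proteins bound to it, had 56940, 59417 and 57553 in the same 3 groups and 58835 in Control. For Rplp2, the other acidic stalk protein, the signals were 78689, 80542 and 77711 against 77818 in Control. Before any scaling between arrays, the D-PDMP array was the highest for each of these 3 genes. The lowest array was then Control for Rplp0, Miglustat for Rplp1 and D-PPMP for Rplp2. After the scaling described below, Control was the highest for Rplp1 and Rplp2, and D-PPMP was the lowest for Rplp0.

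Proteins of the small subunit showed the same picture. Rps6, the target of S6 kinases, had signals of 33810 on the Miglustat array, 35322 with D-PDMP and 33474 with D-PPMP, against 34271 in Control. Rps19, whose human counterpart is the gene most often mutated in Diamond-Blackfan anaemia, had 68636, 71118 and 68666 against 68893 in Control. Rps20, a protein of the small subunit's head, had 69020, 67455 and 65020 with Miglustat, D-PDMP and D-PPMP, against 67982 in Control. On these unscaled signals Rps6 and Rps19 were highest with D-PDMP and Rps20 with Miglustat, whereas after scaling Control was highest for each. With and without scaling, Rps20 was lowest with D-PPMP. The brightest probe of Rpsa, which is also known as the laminin receptor precursor, was likewise lowest with D-PPMP. It had 53991 there, against 56873 with Miglustat, 56661 with D-PDMP and 57040 in Control. The other Rpsa probe was instead lowest with Miglustat, at 45612, against 48262 with D-PDMP, 48002 with D-PPMP and 47402 in Control. The lowest array for Rpsa thus rests on the probe.

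Rpl5 and Rpl11 form the particle with ribosomal RNA that binds Mdm2 when ribosome assembly is disturbed. Rpl5 had signals of 19653 on the Miglustat array, 21297 with D-PDMP and 21545 with D-PPMP, against 21518 in Control. Rpl11 had 65729, 66678 and 62670, against 66741 in Control. Rpl5 was thus lowest with Miglustat and Rpl11 lowest with D-PPMP. Rpl13a, which in interferon-treated monocytes is released from the ribosome to silence mRNAs, had 25135, 26085 and 25325 against 25756 in Control.

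**Figure D1:**
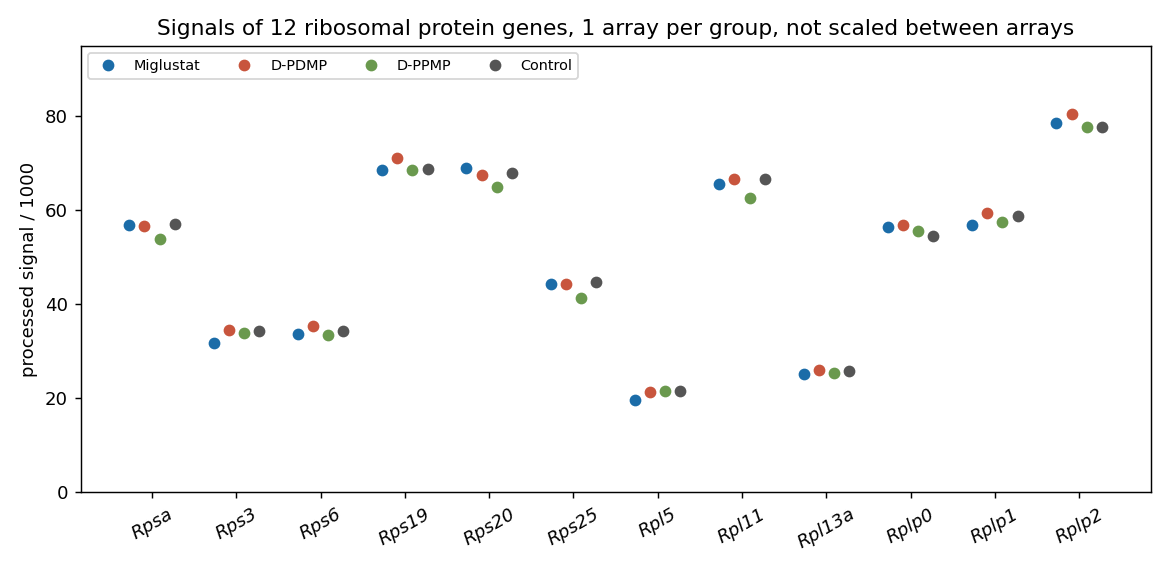
Processed signals (vertical axis, divided by 1000, not scaled between arrays) of 12 ribosomal protein genes on the 4 arrays, 1 point per array. For each gene the 4 points lie close together, as for Rplp0 between 54493 in Control and 56825 with D-PDMP. Heights of different genes reflect different probes.

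To compare arrays, the log2 signal of each array had its 75th percentile over all probes subtracted, and the difference between 2 arrays is a log2 ratio. On that scale the median of the 81 measured members lay slightly below Control with each inhibitor, except under quantile normalization. The median log2 ratio was -0.080 on the Miglustat array, -0.040 with D-PDMP and -0.070 with D-PPMP, or 5.41%, 2.73% and 4.73% lower, while the medians of all genes well above background on both arrays were -0.018, -0.001 and -0.005. Under quantile normalization the members' medians were -0.019, 0.003 and 0.000, so the direction with D-PDMP and D-PPMP depends on the scaling. With Miglustat the median was below 0 under each of the 10 other settings tried.

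The sign counts are given beside the share over all genes, and they move with the scaling. With Miglustat 77 of 81 members were below Control, where 55.5% of 14174 genes were. With D-PDMP 67 of 81 were below, against 50.4% of 14157 genes, and with D-PPMP 73 of 81, against 51.5% of 14203 genes. The 3 comparisons share the Control array. In all 3 of them 64 of 81 members were below and 2 were above, and over all genes 3697 of 14006 were below and 2960 above. Under quantile normalization 57 members were below Control for Miglustat, 34 for D-PDMP and 40 for D-PPMP. The medians of all genes were then -0.011, -0.018 and -0.016, and their share below Control was not counted under that scaling.

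The 75th percentiles themselves differed between arrays, being 0.064, 0.053 and 0.047 higher on the log2 scale with Miglustat, D-PDMP and D-PPMP than in Control. Before any scaling, the members' median log2 ratio was -0.016, 0.013 and -0.023, with 54, 26 and 56 of 81 members below Control. All genes had unscaled medians of 0.046, 0.052 and 0.041, and their share below Control was not counted without scaling. Unscaled, the members' median was thus below that of all genes with each inhibitor, but below Control with Miglustat and D-PPMP only. Under quantile normalization the members' median was above that of all genes with D-PDMP and D-PPMP. Among the 105 other genes as bright as the members' lower quartile or brighter, the scaled medians were -0.038, -0.049 and -0.072. Set beside these, the members' median was the lower with Miglustat but not with D-PDMP or D-PPMP. Of those 105 genes 68.6%, 81.0% and 85.7% were below Control, and of the members 95.1%, 82.7% and 90.1%, so with D-PDMP and D-PPMP most of the equally bright genes lay below Control too. The part of brightness in the members' shift was not tested.

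None of the 81 members was at least 2-fold from Control on any inhibitor array. That rule was met by 0.388% of all genes on the Miglustat array, 0.325% with D-PDMP and 0.507% with D-PPMP. Nor was any member 1.2-fold from Control by its brightest probe. That difference was shown by 14.9%, 13.9% and 17.6% of all genes and by 1.90%, 1.90% and 3.81% of the 105 other bright genes. Of these 105, none was 2-fold from Control. Some other probes of members did pass 1.2-fold. With Miglustat these were an Rpl3 probe at -0.45 and a dim Rps27a probe at -0.29. With D-PDMP and D-PPMP they were probes of Rps15a and Rps24, described below. By their brightest probes, the members' log2 ratios ran from -0.23 to 0.06 with Miglustat, from -0.18 to 0.24 with D-PDMP and from -0.24 to 0.15 with D-PPMP. Their SD across genes was 0.049, 0.051 and 0.061, against 0.217, 0.214 and 0.239 for all genes. The 105 other bright genes had SDs of 0.0996, 0.0902 and 0.0968, between those of the members and of all genes.

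**Figure D2:**
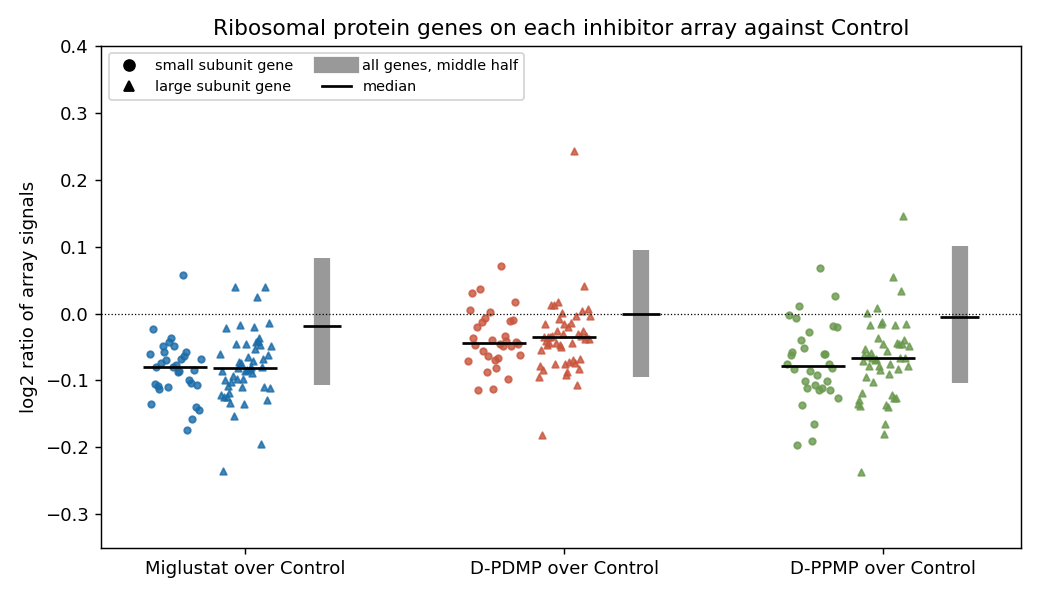
Log2 ratio of each inhibitor array over Control (vertical axis) for the 32 small subunit genes (circles) and 49 large subunit genes (triangles) well above background on all 4 arrays. Black lines are medians, and grey bars run from the lower to the upper quartile of all genes. Most members lie just below 0, and the values span -0.24 to 0.24.

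The small subunit genes had medians of -0.080, -0.044 and -0.079 with Miglustat, D-PDMP and D-PPMP, and the large subunit genes -0.082, -0.035 and -0.067. With no replicate array, the difference between the subunits was not tested. Under quantile normalization the small subunit stood above Control with D-PDMP and D-PPMP, at 0.012 and 0.003. Members with the pyrimidine motif at the annotated start had medians of -0.081, -0.043 and -0.080 over 30 genes, and those without it -0.072, -0.034 and -0.066 over 31. Over the 4 arrays the median member spanned a log2 range of 0.108, or 1.08-fold, against 0.197, or 1.15-fold, for all genes measured on the 4 arrays.

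The steadiest member was Rplp0, whose range over the 4 arrays was 0.023, with log2 ratios to Control of -0.014, 0.007 and -0.015. It was followed by Rpl27, a large subunit protein, at 0.036, Rps21, which sits on the small subunit's solvent side, at 0.039, Rpl38 at 0.043 and Rpl4 at 0.043. The rank of Rpl27 rests on its brightest probe, since its other one was at -0.14, -0.034 and -0.065. Rplp0, Rps21, Rpl38 and Rpl4 each had 1 probe of 1 spot. For a probe of 1 spot, the within-array error of a log2 ratio was 0.048 for Miglustat, 0.047 for D-PDMP and 0.046 for D-PPMP. That is more than the ranges of Rplp0, Rps21, Rpl38 and Rpl4, so their order is not settled. The brightest Rpl27 probe had 10 spots, with SEs over spots of 0.014, 0.012 and 0.014, less than its range. Its place among the single-spot genes is not settled either. Rpl38, which in mouse embryos is needed for the translation of a subset of Hox mRNAs, had log2 ratios of 0.025, -0.003 and -0.017. Its signals were 69086 on the Miglustat array, 67206 with D-PDMP and 66270 with D-PPMP, against 64929 in Control.

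At the other end stood Rpl12, part of the stalk base. Its brightest probe had signals of 72545 on the Miglustat array, 74677 with D-PDMP and 71535 with D-PPMP, against 81634 in Control, the highest of the 4. The log2 ratios were -0.23, -0.18 and -0.24. The other Rpl12 probe did not show this, with signals of 27855, 29763 and 28109 against 28609 in Control and ratios of -0.10, 0.004 and -0.072. Both probes carry the same accession and 1 spot each.

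With Miglustat, the members with the lowest ratios included, besides Rpl12, Rpl5 at -0.20, Rps3 at -0.17 and Rpl22 at -0.15. Rps3 lies at the mRNA entry channel of the small subunit and also acts in DNA repair. Its signals were 31760 on the Miglustat array, 34564 with D-PDMP and 33932 with D-PPMP, against 34262 in Control, so the Miglustat array was the low one. Rpl22, an RNA-binding protein dispensable in most cells for making ribosomes, had 12965, 13980 and 13668 against 13787 in Control. The highest ratios with Miglustat belonged to Rps27l at 0.058, Rpl22l1 and Rpl7l1 at 0.040 each, Rpl38 at 0.025 and Rplp0 at -0.014. The first 3 of these are paralogs of standard members.

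With D-PDMP, Rpl12 was followed by Rps15a at -0.11, Rps24 at -0.11, Rpl39 at -0.11 and Rps3a1 at -0.097, each by its brightest probe, a single spot. Probes printed 10 times lay above Control for Rps15a at 0.051, Rpl39 at 0.025 and Rps3a1 at 0.094, and another Rps24 probe was at 0.28. Further probes lay below it, for Rps24 at -0.18 and for Rps3a1 at -0.041. A second Rpl39 probe of many spots was at -0.041, and the remaining Rpl39 probes, single spots, at 0.10 and -0.10. These directions thus rest on the probe chosen. Highest was Rpl37 at 0.24, on a single probe with signals of only 31.9 on the Miglustat array, 38.8 with D-PDMP and 34.0 with D-PPMP, against 31.7 in Control. No other standard member had so dim a brightest probe, and with normexp background correction no member was above 0.068 with D-PDMP. Next came Rps27l at 0.072, Rpl7l1 at 0.041, Rps16 at 0.036 and Rps12 at 0.031.

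With D-PPMP, the lowest members after Rpl12 were Rps15a at -0.20, Rps24 at -0.19, Rpl31 at -0.18 and Rps25 at -0.16. Rps25, which viral internal ribosome entry sites need for translation, had signals of 44435 on the Miglustat array, 44322 with D-PDMP and 41324 with D-PPMP, against 44842 in Control. Rpl31 had 64723, 62897 and 58271 against 63888 in Control. On these probes, of 1 spot each, the D-PPMP array was the low one. A second Rpl31 probe, printed 10 times, was instead lowest with Miglustat, at 29311 against 30509 with D-PDMP, 29759 with D-PPMP and 30354 in Control. The highest members were Rpl7l1 at 0.15, Rps27l at 0.069, Rpl37 at 0.055 and Rpl7 at 0.033.

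Between the ceramide analogues, which were used at different doses, D-PPMP stood below D-PDMP in 73 of 81 members, where 54.3% of 14556 genes did. The median log2 ratio of D-PPMP over D-PDMP was -0.032, against -0.010 for all genes. It was 0.011 under cyclic loess normalization, which removes trends with brightness, so its direction depends on the scaling. No member was 2-fold apart on these 2 arrays, a rule met by 0.179% of genes. Because the doses were 1.0 and 10 µM, the values are given side by side and say nothing about the acyl chain.

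Many members were printed several times on each array, which gives the error of spotting and scanning. Such repeats covered 60 probes of 48 members, with at least 5 usable spots per array. The SE of a log2 ratio over these spots was 0.014 in the median, between 0.007 and 0.034. With Miglustat all 60 probes were below Control, from -0.17 to -0.014. With D-PDMP 46 were below, from -0.088 up to 0.14, and with D-PPMP 51 were, from -0.14 up to 0.11. These SEs cover neither the culture nor the labelling, and the spots of an array share its scaling.

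**Figure D3:**
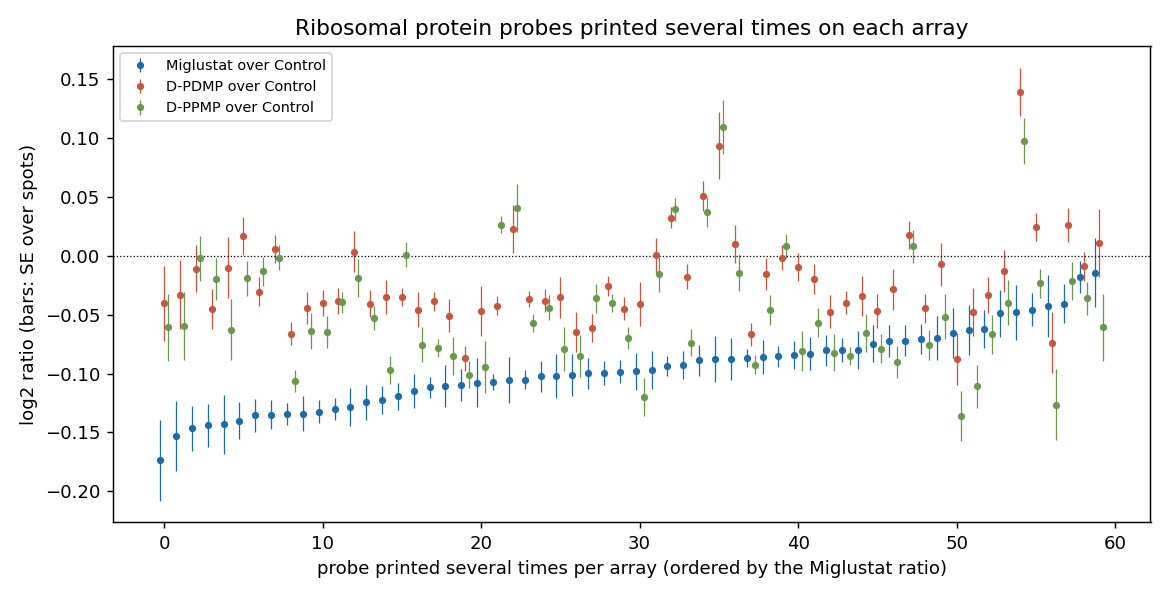
Log2 ratio over Control (vertical axis) of 60 ribosomal protein probes printed several times per array, ordered by their Miglustat value. Points are means over spots and bars are SEs over spots. The Miglustat points run from -0.17 to -0.014, whereas D-PDMP and D-PPMP points cross 0.

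Probes of 1 gene mostly gave close values. In the 45 members with more than 1 measured probe, the largest difference in log2 ratio between probes was 0.094 in the median gene. It passed 0.3 in 3 members, Rpl3, Rps15a and Rps24. Rpl3, next to the peptidyl transferase centre, had 2 probes at -0.14 and -0.055 with Miglustat and another at -0.45. That last probe had signals of 5943 on the Miglustat array, 8010 with D-PDMP and 8013 with D-PPMP, against 7779 in Control, so Miglustat was the low array on this probe, which is a single spot. For Rps15a the probe with ratios of 0.36 and 0.37 with D-PDMP and D-PPMP was dim, with signals of 9.36, 12.2 and 12.2 against 9.12 in Control. Its probe printed 10 times was at -0.089, 0.051 and 0.037, and the brightest, a single spot, at -0.11, -0.11 and -0.20, so the direction with D-PDMP and D-PPMP rests on the probe.

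Rps24, which is known for transcripts that differ at the 3′ end by alternative splicing, had 3 probes under 3 transcript accessions. The brightest had signals of 61725 on the Miglustat array, 58575 with D-PDMP and 55307 with D-PPMP, against 61068 in Control. The second probe had 38356, 33796 and 30472, against 36937 in Control. On both probes the D-PPMP array was the lowest, at scaled log2 ratios of -0.19 and -0.32. The third probe had 9154, 11390 and 9832 against 9022 in Control, highest with D-PDMP, at a ratio of 0.28. All 3 are single spots, and whether they mark separate transcripts was not tested.

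The probes of Rps6 also differed. The brighter Rps6 probe, with 10 spots in Control, had ratios of -0.084, -0.009 and -0.081, and the other, with 8 spots in Control, -0.048, 0.14 and 0.098. With D-PDMP and D-PPMP the probes of this gene lay on opposite sides of Control.

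**Figure D4:**
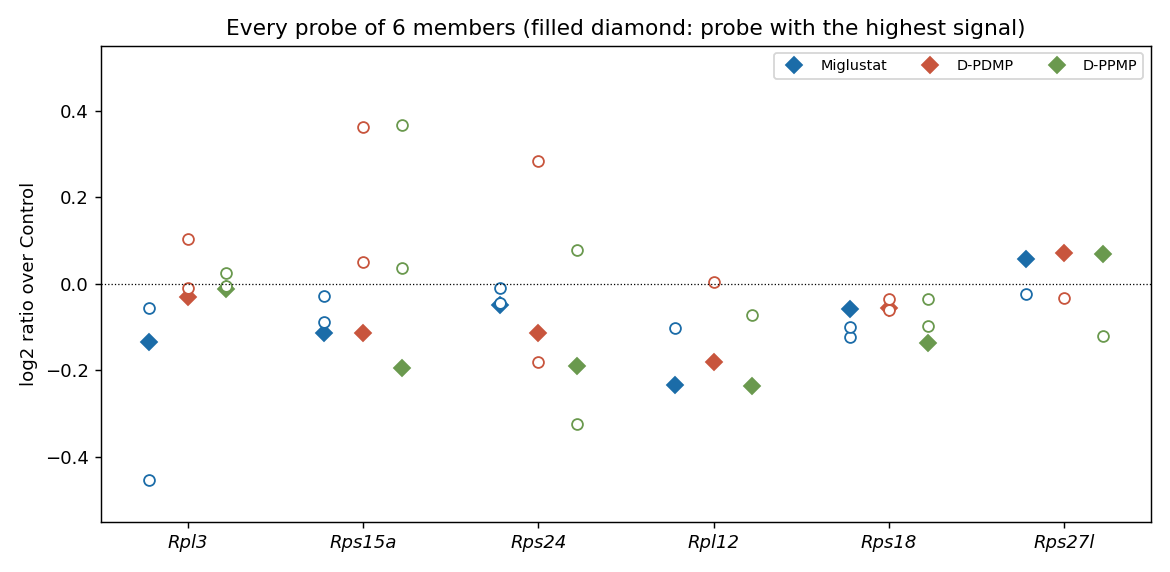
Log2 ratio over Control (vertical axis) of every probe well above background on all 4 arrays for 6 ribosomal protein genes. Filled diamonds mark the probe with the highest signal and open circles the other probes. The probes of Rps18 lie together, while 1 probe each of Rpl3 and Rps15a and the 3 of Rps24 spread apart.

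The measured paralogs are given beside their standard forms. Rps27l, a p53-inducible form of Rps27, had signals of 17734 on the Miglustat array, 17763 with D-PDMP and 17648 with D-PPMP, against 16291 in Control, lowest in Control. Its ratios were 0.058, 0.072 and 0.069, while Rps27 was at -0.087, -0.067 and -0.092. The other Rps27l probe was at -0.024, -0.034 and -0.12, so the direction rests on the probe chosen. Rpl22l1, the paralog that Rpl22 holds back, was at 0.040, 0.012 and -0.067, beside Rpl22 at -0.15, -0.033 and -0.059. Rpl7l1, a nucleolar relative of Rpl7, was at 0.040, 0.041 and 0.15 with signals of 328, 325 and 348 against 305 in Control. Probes of members and of near-identical copies may bind each other's transcripts, and the part of this in their values was not tested. Rpl32l, which by its RefSeq name is a copy of Rpl32, was at -0.065, -0.088 and -0.14, beside Rpl32 at -0.085, -0.093 and -0.16.

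Ribosomal proteins whose symbols the rule does not catch lay in the same range. Fau, which encodes a small subunit protein fused to a ubiquitin-like domain, was at -0.097, -0.087 and -0.16 with Miglustat, D-PDMP and D-PPMP. Rack1, a scaffold on the small subunit, was at -0.084, -0.15 and -0.12. Rpl36al, a copy of Rpl36a, was at 0.031, 0.034 and -0.092.

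Other genes of translation were counted from lists. Among 22 further translation genes with a known pyrimidine tract, which include Fau and Rack1, 21 of the Miglustat ratios, 13 of the D-PDMP ratios and 15 of the D-PPMP ratios were negative. Their medians were -0.11, -0.007 and -0.052, the last 2 changing sign with the scaling. Eef1g, a subunit of elongation factor 1, was at -0.15, -0.15 and -0.12, and Eif3a, the largest subunit of initiation factor 3, at 0.054, 0.13 and 0.050. No gene of this list was 2-fold from Control. Of 26 other initiation factors, 19, 11 and 18 were below Control, with medians of -0.047, 0.008 and -0.035, the last 2 again changing sign with the scaling.

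The mitochondrial ribosomal proteins were a further family of like size. Of 79 genes, 56, 41 and 45 were below Control in the order Miglustat, D-PDMP, D-PPMP, with medians of -0.045, -0.003 and -0.014. The D-PPMP sign depended on the scaling. Mrps30, a protein of its ribosome, was at -0.29, 0.005 and -0.10 and Mrpl18, which carries ribosomal RNA into mitochondria in human cells, at 0.073, 0.15 and 0.13. None was 2-fold from Control.

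Ribosome assembly and rRNA processing genes numbered 55. With Miglustat 42 of them lay below Control, and with D-PDMP and D-PPMP 17 and 25 did, with medians of -0.062, 0.019 and 0.004. Gnl3, nucleostemin, had signals of 629 on the Miglustat array, 698 with D-PDMP and 686 with D-PPMP, against 578 in Control. Nmd3, the export adaptor of the large subunit, was at 0.074, 0.22 and 0.12, and Eif6, which keeps the subunits from joining too early, at -0.11, -0.19 and -0.11. Of 15 measured genes of RNA polymerase I, which makes the large ribosomal RNA precursor, 11, 9 and 7 were below Control, with medians of -0.055, -0.022 and 0.000. The signs of the last 2 depended on the scaling. No gene of either list was 2-fold from Control.

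Regulators lay on both sides of Control, and none of 17 measured was 2-fold apart. Myc, a transcription factor that drives ribosome synthesis, had signals of 1464 on the Miglustat array, 1648 with D-PDMP and 1706 with D-PPMP, against 1217 in Control, the lowest. Its log2 ratios were 0.20, 0.38 and 0.44. Rps6kb1, the kinase of Rps6, was at 0.15, 0.19 and 0.16. Eif4ebp1, an inhibitor of cap-dependent initiation under mTOR, was at -0.079, -0.26 and -0.31, and Ddit4, an inhibitor of mTOR complex 1, at -0.43, -0.15 and -0.19. Among 8 genes of p53 and ribosomal stress, Mdm2 was at 0.21, 0.29 and 0.27 and Trp53 at -0.40, -0.18 and -0.41. The medians of that list were 0.044, -0.015 and -0.031, and for D-PDMP the sign changed with the scaling.

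**Figure D5:**
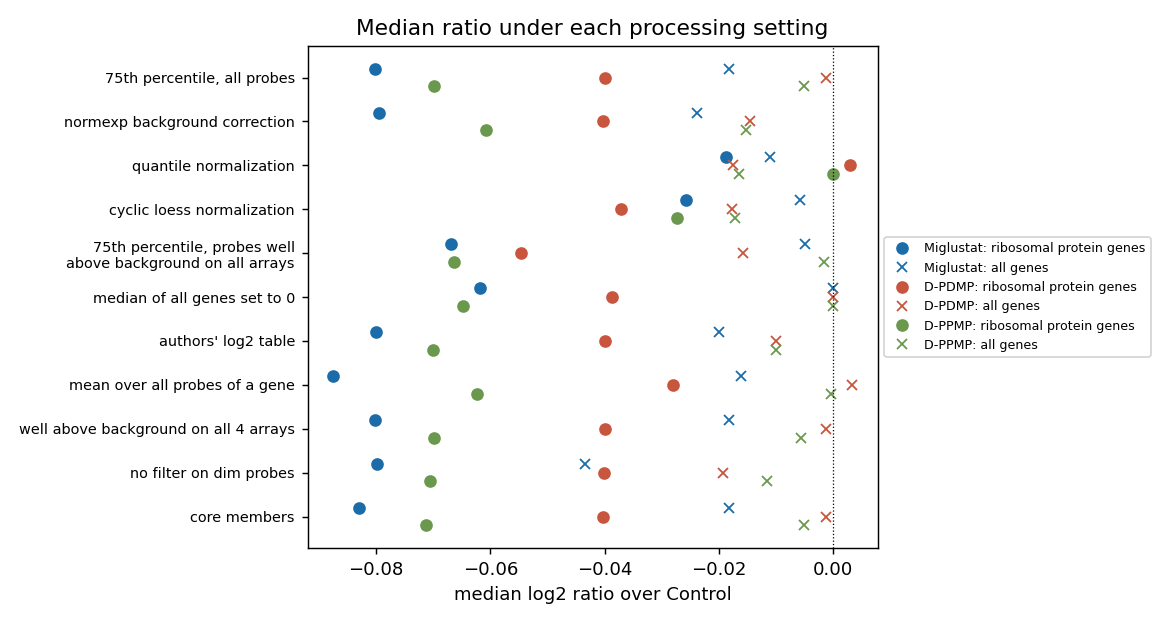
Median log2 ratio over Control (horizontal axis) of the ribosomal protein genes (circles) and of all genes (crosses) under 11 processing settings, 1 row each. The members' medians lie below 0 in all settings except under quantile normalization, where D-PDMP is at 0.003 and D-PPMP at 0.000.

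The 4 arrays came from 1 slide, in positions 1 to 4, and since each group held a single position, effects of position and of group cannot be told apart. The share of probes well above background was 60.2%, 60.8% and 62.4% with Miglustat, D-PDMP and D-PPMP, against 57.5% in Control. Osteoblast markers well above background on the arrays compared were 7 of 10, Col1a1 and Runx2 among them, whereas Alpl and Ibsp, markers of mature osteoblasts, were not well above background on the arrays. Of 5 markers each, macrophage genes had 2 such members, endothelial genes 1, adipocyte genes 2, skeletal muscle genes 1 and chondrocyte genes 2 or 3. Several markers, though not Pecam1 with Miglustat, differed from Control by more than any member did on its brightest probe. Col2a1, a cartilage collagen, was at 0.39, -0.28 and -0.35 with Miglustat, D-PDMP and D-PPMP. Pecam1, an endothelial adhesion protein with a dim probe, was at 0.23, 0.60 and 0.61. With normexp correction Pecam1 was at -0.004, 0.092 and 0.14. Sparc, a bone matrix protein, was at -0.36, -0.45 and -0.44. The 7 measured osteoblast markers lay on both sides of Control, with 3, 3 and 1 above it and 4, 4 and 6 below. Their highest ratios were 0.74, 0.19 and 0.38. The part of the markers in the members' values was not tested. In bulk RNA, fewer cells of a type and less RNA per cell cannot be told apart.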

How the data were processed

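Agilent scanner files of 4 MC3T3-E1 samples, 1 per group, were used. The authors' deposited spot intensity values were made with Agilent Feature Extraction 12.1.1.1, per the submitters' processing notes. The processed signal used here is background-corrected by that software within each array. The authors' deposited log2 table equals log2 of that signal minus the array's 75th percentile. After a constant per array, 100% of 31518 probes agreed within 0.02. Its column medians were -3.99, -3.99 and -3.88 with Miglustat, D-PDMP and D-PPMP and -4.09 in Control, and the software behind it is not given in the sources used here.

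Here control spots and outlier spots were left out, log2 signals were averaged per probe, and the 75th percentile over 56605 probes (56602 with D-PPMP) was subtracted. A probe counted as well above background when at least 1 of its spots did. Probes were matched by accession to a RefSeq table of GRCm38.p6, which gave names and no coordinates, because the array design is of build mm9. Of the probes, 32994 (58.3%) matched. A gene took its brightest probe. Alternatives used limma 3.58.1 in R 4.3.3. The planned normexp alternative took the median spot signal, since the files used here hold no mean spot signal. Only the step that counts genes and takes medians was tested on simulated data with known shifts. Spot averaging, scaling, probe choice and the motif search were not.

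Named members were, per inhibitor, the 5 highest and 5 lowest, the 5 steadiest, the 5 brightest and dimmest, those not measured everywhere, paralogs, a fixed list of well-known members, and members whose probes differed by over 0.3. From related lists came the 3 highest and 3 lowest genes, of which the text gives some. Results for a few genes that these rules name are not reported here. Members and lists were chosen with earlier results of these data known.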

Additional observations from a re-analysis of the deposited data

How the results depend on the processing

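The family's values were recomputed under 10 other settings. Under quantile normalization, the Miglustat median was -0.019 for all members, -0.017 for the small and -0.019 for the large subunit, and the D-PPMP values were 0.00, 0.003 and -0.010. With D-PDMP the median was 0.003 for all members and 0.012 for the small subunit. The shares of members above Control were then 23.5%, 53.1% and 44.4% with Miglustat, D-PDMP and D-PPMP, against 4.94%, 17.3% and 9.88% as reported. Such shares over all genes were counted under the reported scaling only. Under cyclic loess normalization, the Miglustat medians were -0.026, -0.022 and -0.027 for all members, the small and the large subunit, the D-PPMP medians were -0.027, -0.033 and -0.025 for the same groups, the shares above Control were 29.6% for Miglustat and 27.2% for D-PPMP, while the median of D-PPMP over D-PDMP was 0.011. With the percentile taken only over probes measured on each of the 4 arrays, the D-PDMP share was 8.64%, and without paralogs the Miglustat share was 1.30%. In no setting was a member 2-fold from Control. Of 243 ratios of single members, 88 changed sign under quantile and 37 under cyclic loess normalization, and 16 with normexp correction. The cause was not tested. Over all genes, those 2-fold above and below Control numbered 30 and 25 with Miglustat, 22 and 24 with D-PDMP and 43 and 29 with D-PPMP. They were 5 and 4, 4 and 2, and 6 and 8 with normexp, 20 and 26, 14 and 36, and 22 and 56 under quantile, and 21 and 28, 14 and 38, and 21 and 48 under cyclic loess normalization. With the mean over a gene's probes they were 41 and 22, 53 and 21, and 83 and 30, and with no filter on dim probes 953 and 535, 1248 and 491, and 1617 and 354. No paired analysis was possible because each group had 1 array. With no replicate array, no difference here has an error that includes the culture.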
